A study of Homo sapiens with 38 samples.

Results

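Mature microRNAs (miRNAs) were followed through 2 acute myeloid leukaemia cell lines, the vesicles these lines release and an affinity pull-down of glycosylated RNA. The set described here is the abundant mature miRNA entries of RNAcentral, a database that gives every distinct non-coding RNA sequence 1 identifier. Entries were selected on the raw counts: the class had to be miRNA, the identifier an RNAcentral one, and the count summed over all 38 libraries 1000 or more. Of 1401 mature miRNA entries of RNAcentral in the table, all with at least 1 count, 140 met this rule, in a table of 90127 features. The lowest entries kept had summed counts of 1008, 1020 and 1026, and the highest ones left out had 983, 977 and 961. The rule used only this sum over all groups, and not the result of any comparison below. The sum is made of the same counts, however, and cell total RNA held the largest counts of the set. The rule therefore favoured entries high in cell total RNA, which can tilt the set towards entries lower in vesicles and in the pull-down. The 140 entries held 99.3% of all RNAcentral mature miRNA counts and 3.70% of all counts. None of the files or references used here pairs these identifiers with a miRNA name or a sequence, so the entries are called by their rank in summed count, entry 1 being the most abundant. Entry 1 alone made 27.4% of the set's counts, the first 3 entries made 53.6% and the first 12 made 83.7%, and the median entry had a summed count of 4198.5.

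KG1a and HL60 are established leukaemia lines, KG1a of a primitive CD34-positive type and HL60 of a promyelocytic type, and both were labelled wild type. RNA came from the cells, from their large extracellular vesicles (lEV) and from their small extracellular vesicles (sEV), 6 sources in all. Each source was sequenced as total RNA and as RNA enriched by rPAL, in which periodate oxidation and aldehyde ligation tag sialic acid-bearing glycans on RNA for a biotin pull-down. The cells whose RNA was taken grew with 10% fetal bovine serum, while vesicles were collected from cells kept for 2 days without serum, so serum is a further difference between the 2 kinds of sample. There were 4 libraries of KG1a cell total RNA, 4 of KG1a cell rPAL RNA and 3 of each of the other 10 groups. Whether replicates came from separate cultures is not given in the labels, and the p-values then measure only the spread between these libraries, which may be technical.

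A mature miRNA is cut from a hairpin precursor by the nucleases Drosha and Dicer and is loaded onto an Argonaute protein, where it guides the silencing of matching mRNAs. Cells also release miRNAs, bound to proteins or enclosed in vesicles, and the miRNA content of a vesicle can differ from that of its cell of origin. Glycosylated small RNAs, carrying sialylated glycans, have been described on the surface of living cells, and rPAL was devised to enrich them. The comparisons below ask which entries were found in vesicles and which were retained in the pull-down.

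Library totals were 5498168 to 14892937 counts in total RNA and 2380745 to 15532758 in rPAL RNA. A total RNA library held reads of 118 to 138 of the 140 entries, a cell rPAL library of 98 to 131 and a vesicle rPAL library of 20 to 116. CD34 mRNA averaged 2.95 ± 1.47 CPM (counts scaled to a common library total) in KG1a cells and 0.0704 ± 0.0699 CPM in HL60 cells (SD, n = 4 and 3). MPO mRNA, which encodes myeloperoxidase, averaged 0.0181 ± 0.0362 CPM and 2.49 ± 0.943 CPM in the same order. Summed, the 5 KG1a markers listed had 3.43 CPM in KG1a and 0.761 CPM in HL60 cells, and the 6 HL60 markers 0.116 and 3.78 CPM. Over all 38 libraries CD34 made 1327 of the KG1a list's 1680 counts and MPO 879 of the HL60 list's 1244. ELANE, on the HL60 list, had 0 reads in HL60 cell total RNA, so the contrast rests mainly on CD34 and MPO. Among markers of other cells, 7 genes of red cells or plasma had 76 counts in all 38 libraries. The 6 Ensembl miRNA genes listed for liver, muscle and brain had 0 counts, but MIR223, a myeloid miRNA gene, had 0 as well, so this list says nothing on other tissues. Some libraries stood apart from their group. HL60 lEV total RNA replicate 2 had 1.43% of its counts on miRNA precursor entries against 6.48% and 6.73% in the other replicates. KG1a cell rPAL replicates 2 and 3 had 16.04% and 18.96% on precursors against 4.83% and 0.877%. In HL60 sEV rPAL replicate 2 a single mRNA took 40.1% of the counts, against at most 4.33% for the leading mRNA of every other library. Counts that rest on these libraries are given with and without them.

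The mature miRNA entries took, on average, a larger share of the counts in cells than in vesicles of the same line, and a larger share in total RNA than in rPAL RNA of the same source. None of these differences passed 0.05 after adjustment over the 16 tests of shares. In KG1a they took 9.97 ± 0.785% of cell total RNA counts (SD, n = 4), 3.48 ± 0.581% in lEV and 4.36 ± 1.15% in sEV (SD, n = 3). In HL60 they took 3.88 ± 0.590% in cells, 1.33 ± 0.846% in lEV and 3.28 ± 0.428% in sEV (SD, n = 3). The KG1a cell libraries lay above every KG1a vesicle library (exact two-sided permutation p = 0.029, adjusted p = 0.12 over the 16 such tests for lEV, and the same p for sEV). HL60 cell libraries lay above the lEV libraries (exact two-sided permutation p = 0.10, adjusted p = 0.12 over the 16 such tests) but overlapped with the sEV libraries (exact two-sided permutation p = 0.30, adjusted p = 0.32 over the 16 such tests). With 3 libraries against 3 an exact test cannot go below 0.10. In bulk RNA, a smaller fraction of cells or vesicles that carry an RNA and less of it in each cannot be told apart.

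In rPAL RNA the share was 4.71 ± 3.49% in KG1a cells (SD, n = 4) and 1.40 ± 0.171% in HL60 cells (SD, n = 3). The KG1a replicates 1 to 4 held 2.96, 6.06, 8.89 and 0.932%, and their spread was several times that of the total RNA libraries. Vesicle rPAL libraries held 0.448 ± 0.415% (KG1a lEV), 0.456 ± 0.493% (KG1a sEV), 0.139 ± 0.0579% (HL60 lEV) and 0.121 ± 0.0809% (HL60 sEV; SD, n = 3 each). As a share of all counts, the rPAL libraries of a source lay below all its total RNA libraries in each of the 6 sources (exact two-sided permutation p = 0.029, adjusted p = 0.12 over the 16 such tests for KG1a cells; exact p = 0.10, the smallest possible, and adjusted p = 0.12 for each of the other 5). Against cell rPAL libraries, the KG1a lEV and sEV rPAL libraries had exact two-sided permutation p-values of 0.057 and 0.11, and the HL60 ones 0.10 each. The ratio of total to rPAL share was smallest in KG1a cells, at 2.12-fold, and largest in HL60 sEV, at 27.04-fold, and HL60 lEV had 9.54-fold and KG1a sEV 9.56-fold. With ribosomal RNA left out of the library total, the KG1a cell groups overlapped (exact two-sided permutation p = 0.057), and the ratios became 1.95-fold in KG1a cells, 5.58-fold in KG1a sEV, 15.2-fold in HL60 sEV and 4.71-fold in HL60 lEV.

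**Figure D1:**
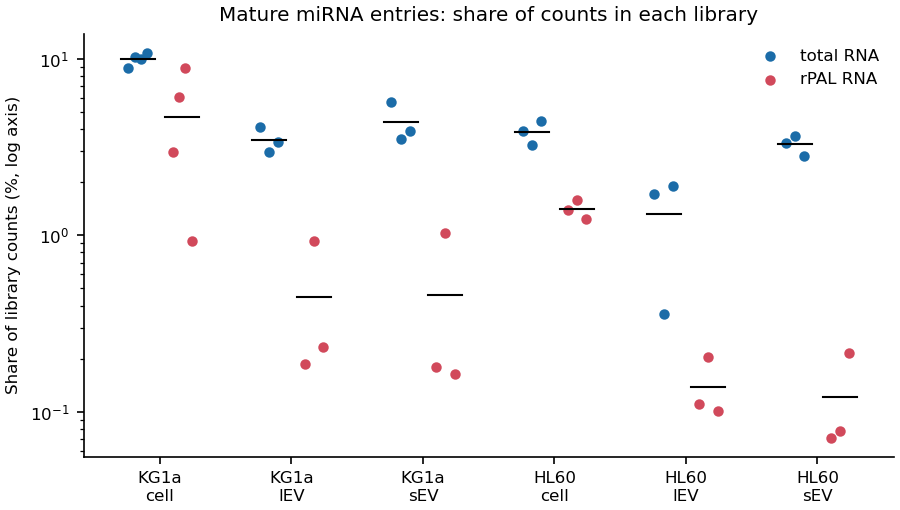
Share of each library's counts on the 140 mature miRNA entries, in percent on a log axis, by line and source. Each point is a library of total RNA (blue) or rPAL RNA (red) and black bars are group means; in every source the red points lie below the blue ones, and the KG1a cell rPAL points spread from 0.932 to 8.89%.

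A few entries dominated the miRNA pool, and which ones did so depended on the line, the source and the pull-down. Entry 1 was the most abundant in total RNA of KG1a cells, lEV and sEV, with 20.9 to 24.5%, 22.4 to 33.1% and 20.4 to 31.6% of the set's counts, although in sEV replicate 3 entry 2 lay above it. In HL60 vesicles entry 2 led instead, with 52.4 to 62.8% in lEV and 46.1 to 57.3% in sEV, against 23.3 to 26.3% in HL60 cells. In rPAL RNA entry 2 made at most 9.86% of the pool in any library. In the KG1a cell pull-down entry 1 led in replicates 1 to 3 and entry 6 in replicate 4. Entry 6 made 36.7 to 42.3% of the pool in HL60 cell rPAL RNA and 9.07 to 63.7% in KG1a cell rPAL RNA, against 0.813 to 1.03% and 0.509 to 1.71% in total RNA of the same cells. Entry 1 led in all vesicle rPAL libraries, at 43.4 to 63.3% (KG1a lEV), 32.5 to 39.7% (KG1a sEV), 48.002 to 64.7% (HL60 lEV) and 38.5 to 44.6% (HL60 sEV).

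**Figure D2:**
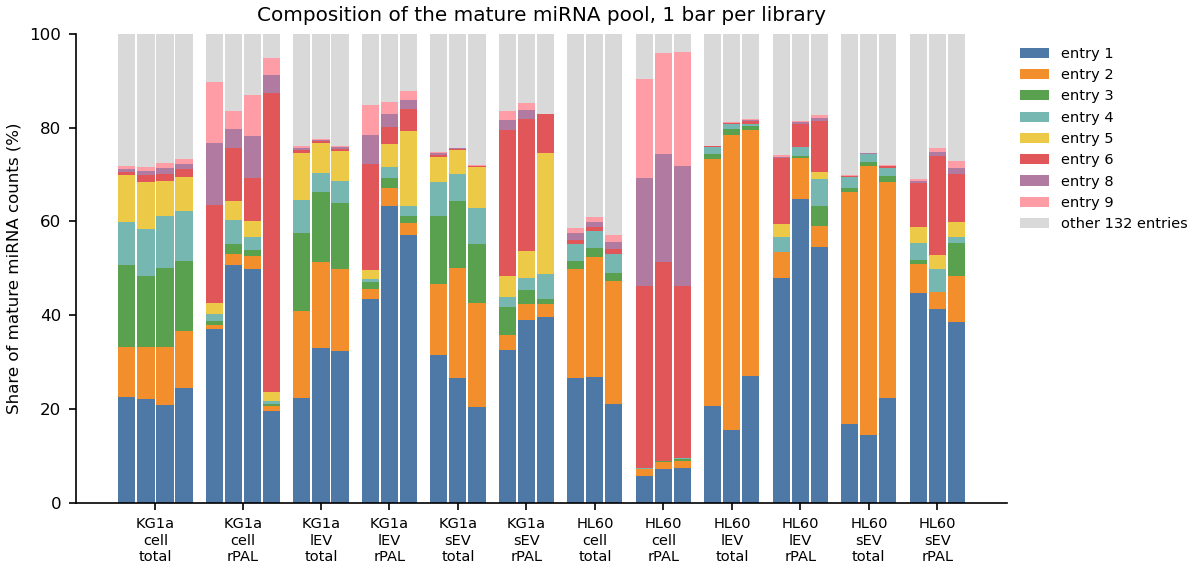
Composition of the mature miRNA pool, in percent of the counts of the 140 entries, with 1 bar per library and 8 entries coloured. Entry 2 (orange) is the largest block in HL60 vesicle total RNA, entries 6, 8 and 9 (red, purple and pink) fill most of HL60 cell rPAL RNA, and entry 1 (blue) leads in the vesicle rPAL libraries.

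The 12 most abundant entries had the following levels, in CPM. Entry 1 stood at 22452 ± 2851 in KG1a cells (SD, n = 4), 9971 ± 818 in lEV and 11726 ± 5404 in sEV (SD, n = 3). In HL60 its levels were 9495 ± 829.7 in cells, 3086 ± 2339 in lEV and 5751 ± 500.04 in sEV (SD, n = 3). Entry 2 was at 11640.3 ± 1537 in KG1a cells (SD, n = 4) and 9726 ± 1734 in HL60 cells (SD, n = 3), levels whose ranges overlapped. Other entries set the lines apart. Entry 3 was at 15879 ± 583 in KG1a cells against 718 ± 87.1 in HL60 cells, and entry 4 at 10309 ± 1499.6 against 1447 ± 294 (SD, n = 4 and 3). In cell total RNA entry 5 was almost restricted to KG1a, with 9037, 10336, 7314 and 7825 CPM against 0.428, 0.806 and 0.769 CPM in HL60 cells. HL60 sEV rPAL RNA, however, held 38.1 ± 24.5 CPM of entry 5 (SD, n = 3). Entries 18 and 32 had the same pattern in the cells at lower levels, 1102 ± 157 against 0.207 ± 0.0646 and 132 ± 17.3 against 0.0224 ± 0.0388 (SD, n = 4 and 3). Entry 19 had the opposite one, 1555, 1388 and 1829 CPM in HL60 cells and 0.362, 0.329, 0.188 and 0.420 CPM in KG1a cells. These differences between lines are given as levels and were not tested. Entry 7 had 4297 ± 622 in KG1a and 244 ± 17.7 in HL60 cells, and entry 11 had 2652 ± 412 and 49.5 ± 8.001, so both were higher in KG1a. Entry 10 had 1717 ± 211 and 2516 ± 436, and entry 12 had 1116 ± 101 and 1824 ± 318 (SD, n = 4 and 3). Entries 8 and 9 moved together (Pearson r of log2(CPM + 1) = 0.999 over the 38 libraries, a description over libraries that differ in source and depth). Their KG1a cell levels were 950.1 ± 286 and 922 ± 284 (SD, n = 4), and those of HL60 cells 535 ± 177 and 494 ± 165 (SD, n = 3), so they may share reads.

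**Figure D3:**
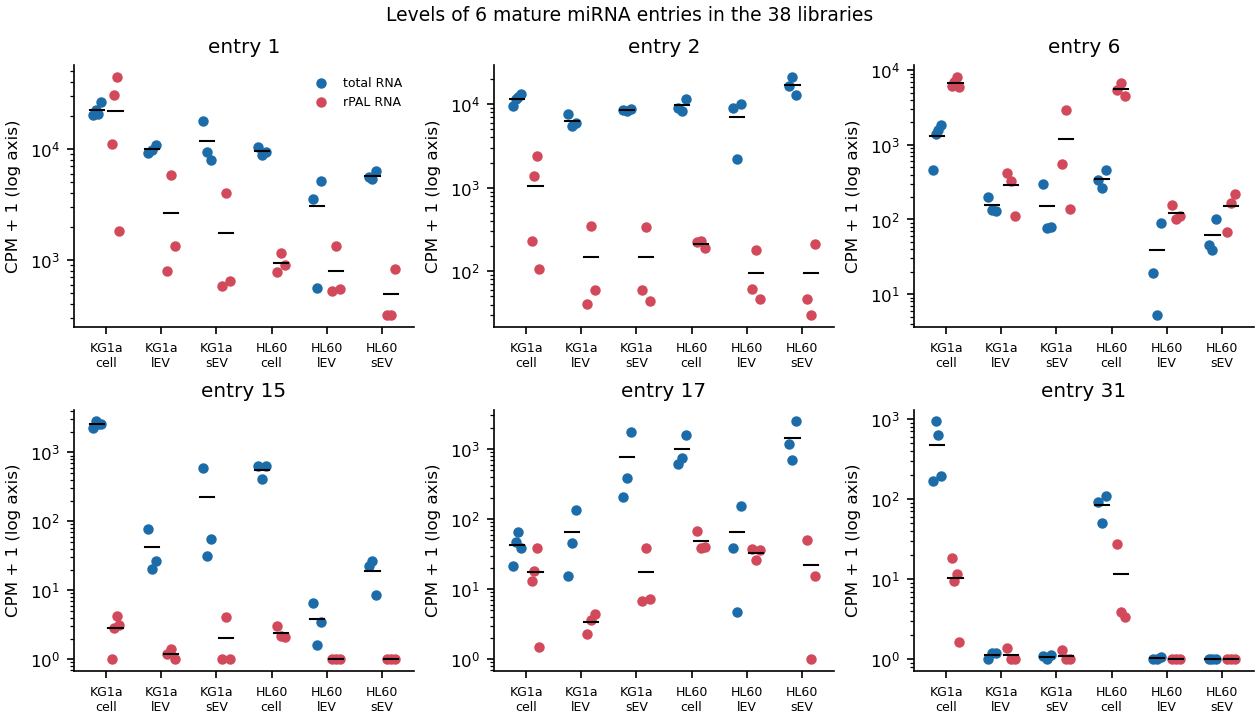
Levels of 6 entries in the 38 libraries, as CPM + 1 on a log axis, with total RNA in blue, rPAL RNA in red and group means as black bars. Entry 6 is higher in rPAL than in total RNA of both cell lines, entry 17 is higher in sEV than in lEV total RNA, and entries 15 and 31 are high in cell total RNA, with entry 31 near 0 in all vesicle libraries.

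Fold changes below come from edgeR's quasi-likelihood test with TMM scaling, fitted over all features that passed its filter on low counts; they are on the log2 scale, and a feature was called at a Benjamini-Hochberg adjusted p under 0.05 over all features tested. In KG1a lEV against cells, 129 of the 140 entries were tested, of which 99 were lower in lEV and 4 (entries 25, 65, 85 and 127) higher. Over all features tested in this comparison 28.5% were called lower and 23.8% higher. The entries' median log2 fold change was -1.59, beside -0.01 for all features tested. In KG1a sEV against cells, 108 of 129 entries tested were lower (all features 22.1%) and 5 (entries 17, 65, 85, 126 and 127) higher (all features 23.0%), with a median of -2.26 beside 0.22. In HL60 lEV, 52 of 123 were lower (all features 15.2%) and 0 higher (all features 12.1%). Of these 123, 66 had an unadjusted p under 0.05 in edgeR and DESeq2 also called 0 higher; the median was -1.35 beside 0.16. In HL60 sEV, 50 of 126 were lower (all features 12.8%) and 8 higher (all features 13.9%), with a median of -0.93 beside 0.16. Both vesicle comparisons of a line share its cell libraries. An entry that passed the filter on low counts only through the group in which it was high had to differ, so the counts describe the entries tested and not all 140. With library totals as the only scaling, the median of all features moved to 0.09 (KG1a lEV), 1.34 (KG1a sEV), -0.61 (HL60 lEV) and 0.42 (HL60 sEV), and the entries' median to -1.47, -1.20, -2.16 and -0.66, so the entries stayed below the other features under both scalings. Leaving out HL60 lEV total RNA replicate 2 gave 7 higher and 55 lower in HL60 lEV, and leaving out HL60 cell replicate 1, 2 or 3 gave 36, 34 or 38 calls in HL60 sEV in place of 58.

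As most entries were lower, the same test was also run with each library scaled to its total of RNAcentral mature miRNA counts, which asks how an entry's part of the pool differs. In KG1a lEV 25 entries then had a larger part of the pool than in cells (all features 62.2%) and 37 a smaller one (all features 10.2%). KG1a sEV had 24 larger (all features 72.0%) and 34 smaller (all features 4.87%). HL60 lEV had 3 larger (all features 20.8%) and 38 smaller (all features 6.96%), and HL60 sEV 15 larger (all features 22.3%) and 37 smaller (all features 8.82%). On this scale features outside the pool are mostly higher, so the percentages for all features describe the scale rather than the pool. Between the lines, 32 entries had a smaller part of the lEV pool in both (86.5% of KG1a's 37 and 84.2% of HL60's 38), and 26 a smaller part of the sEV pool in both (76.5% of KG1a's 34 and 70.3% of HL60's 37). A larger part of the sEV pool in both lines was found for 11 entries (45.8% of KG1a's 24 and 73.3% of HL60's 15), entries 2, 25, 39, 48, 60, 65, 69, 85, 103, 126 and 128, and a larger part of the lEV pool for 2, entries 69 and 86. Entry 17 was called in opposite directions in lEV, with a larger part of the pool in KG1a, at 2.22 (SE 0.57, adjusted p = 0.0022), and a smaller one in HL60, at -2.71 (SE 0.77, adjusted p = 0.027).

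Entry 31 (URS0000D52303) had the largest fall of all entries called in each of the 4 vesicle comparisons. Its levels were 167, 929.9, 622 and 194 CPM in KG1a cells and 89.96, 49.6 and 108 CPM in HL60 cells. All 12 vesicle total RNA libraries had at most 0.204 CPM, which amounts to 4 reads in KG1a lEV, 2 in KG1a sEV, 1 in HL60 lEV and 0 in HL60 sEV. Cell and vesicle libraries did not overlap in either line. The log2 fold change was -11.84 (SE 0.91, adjusted p = 9.1e-07) in KG1a lEV. Over the pooled reads its level was 6167-fold lower in KG1a sEV than in cells (exact Poisson interval 1707 to 50925, adjusted p = 0.00011) and 3206-fold lower in HL60 lEV (575 to 126626, adjusted p = 0.00027). These intervals and floors cover counting error only. For HL60 sEV, where no read was counted, the level was at least 667-fold lower than in cells, from a floor of 3 counts over the group (adjusted p = 0.00068).

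Entries 15 and 24 followed the same pattern with more reads in vesicles. Entry 15 (URS0000483184) was at 2247, 2812, 2575 and 2578 CPM in KG1a cells, 77.6, 19.7 and 25.8 CPM in lEV and 596, 30.05 and 54.4 CPM in sEV. The sEV replicate 1 stood far above the other sEV libraries but below all cell libraries. In HL60 it was at 639, 406 and 644 CPM in cells, 5.62, 0.585 and 2.44 CPM in lEV and 21.5, 25.9 and 7.69 CPM in sEV, again without overlap. Its log2 fold changes were -6.06 (SE 0.53, adjusted p = 1.1e-06) in KG1a lEV, -4.55 (SE 0.94, adjusted p = 0.0026) in KG1a sEV, -6.69 (SE 0.88, adjusted p = 0.00044) in HL60 lEV and -5.13 (SE 0.56, adjusted p = 0.00099) in HL60 sEV. For entry 24 they were -5.79 (SE 0.70, adjusted p = 1.3e-05), -5.86 (SE 0.90, adjusted p = 0.00055), -6.99 (SE 0.93, adjusted p = 0.00046) and -5.88 (SE 0.59, adjusted p = 0.00086) in the same order, from cell levels of 566 ± 276 CPM (SD, n = 4) in KG1a and 362 ± 222 CPM (SD, n = 3) in HL60.

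Further entries that were lower in vesicles included entry 28, with log2 fold changes of -4.72 (SE 0.55, adjusted p = 9.2e-06) in KG1a lEV and -3.76 (SE 0.43, adjusted p = 0.0011) in HL60 sEV, and entry 36, with -6.36 (SE 0.84, adjusted p = 0.00046) in HL60 lEV. The pair of entries 8 and 9 had -4.77 (SE 0.77, adjusted p = 0.00071) and -4.86 (SE 0.76, adjusted p = 0.00062) in KG1a sEV, and entry 9 had -5.15 (SE 0.38, adjusted p = 0.00068) in HL60 sEV, where its level was 20.01, 12.7 and 16.8 CPM against 479.6, 337 and 665 CPM in cells. All of these had a smaller part of the miRNA pool in these vesicles too, with pool-scaled adjusted p-values of at most 0.0014.

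Entry 2, the second most abundant entry, was not called in HL60 vesicles on the TMM scale. It was at 9607, 11419.5, 12339.8 and 13195 CPM in KG1a cells, 7638, 5436 and 5901 CPM in lEV and 8508, 8249 and 8647 CPM in sEV. In HL60 it was at 9122, 8374 and 11681 CPM in cells, 8986, 2236 and 10014 CPM in lEV and 16486, 21060.2 and 13019 CPM in sEV, so that all HL60 sEV libraries lay above the cell libraries. The TMM-scaled log2 fold change in HL60 sEV was 0.57 (SE 0.30, adjusted p = 0.20) and did not pass the threshold, and that in HL60 lEV was 0.31 (SE 0.54, adjusted p = 0.69). In KG1a the values were -0.98 (SE 0.27, adjusted p = 0.0069) for lEV and -1.53 (SE 0.33, adjusted p = 0.0033) for sEV, both called lower. Relative to the miRNA pool entry 2 was higher in KG1a lEV, at 0.64 (SE 0.23, adjusted p = 0.020), in KG1a sEV, at 0.79 (SE 0.23, adjusted p = 0.0063), and in HL60 sEV, at 1.02 (SE 0.24, adjusted p = 0.014), while HL60 lEV had 1.16 (SE 0.67, adjusted p = 0.17). Its direction in KG1a depends on the scale, and so does that in HL60 lEV, where its mean was 7078 ± 4225 CPM against 9726 ± 1734 CPM in cells (SD, n = 3), with replicate 2 far below the other lEV libraries. Entry 1 was called lower in KG1a lEV, at -1.28 (SE 0.26, adjusted p = 0.00079), KG1a sEV, at -1.99 (SE 0.41, adjusted p = 0.0026), and HL60 sEV, at -0.98 (SE 0.23, adjusted p = 0.015), and its part of the pool differed by 0.38 (SE 0.24, adjusted p = 0.16), 0.21 (SE 0.22, adjusted p = 0.38) and -0.47 (SE 0.28, adjusted p = 0.22), none past the threshold.

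Of the entries higher in vesicles than in cells on the TMM scale, entries 65, 85 and 126 had at most 84.2 CPM in any total RNA library; these 3 are described because the count was small, after their values were seen. Called higher in sEV of both lines were entries 65, 85 and 126 (60% of KG1a's 5 and 37.5% of HL60's 8). Entry 85 was at 0.652, 1.56, 1.60 and 1.18 CPM in KG1a cells and 23.7, 18.9 and 84.2 CPM in KG1a sEV, and at 1.07, 1.21 and 3.42 and 20.01, 17.1 and 26.2 CPM in HL60. Groups did not overlap in either line, and the log2 fold changes were 3.84 (SE 0.51, adjusted p = 0.00030) and 3.22 (SE 0.59, adjusted p = 0.0058). For entry 65 they were 3.64 (SE 0.69, adjusted p = 0.0017) in KG1a sEV, 4.80 (SE 0.48, adjusted p = 2.8e-06) in KG1a lEV and 3.84 (SE 0.86, adjusted p = 0.012) in HL60 sEV, from 0.548 ± 0.408 CPM (SD, n = 4) in KG1a cells and 0.302 ± 0.346 CPM (SD, n = 3) in HL60 cells. Entry 25, called in KG1a lEV, had 1.19 (SE 0.41, adjusted p = 0.022), and entry 127 had 1.24 (SE 0.39, adjusted p = 0.014) there and 3.47 (SE 0.77, adjusted p = 0.0039) in KG1a sEV. Entry 126 had 1.33 (SE 0.51, adjusted p = 0.048) in KG1a sEV and 1.53 (SE 0.47, adjusted p = 0.041) in HL60 sEV. Lower in both lines were 47 entries in lEV (47.5% of KG1a's 99 and 90.4% of HL60's 52) and 47 in sEV (43.5% of KG1a's 108 and 94% of HL60's 50), and on the TMM scale no entry was called in opposite directions. Among all entries tested, 42.3% were lower in HL60 lEV and 39.7% in HL60 sEV, against 76.7% in KG1a lEV and 83.7% in KG1a sEV. With rates this high, a large overlap does not by itself show agreement between the lines.

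**Figure D4:**
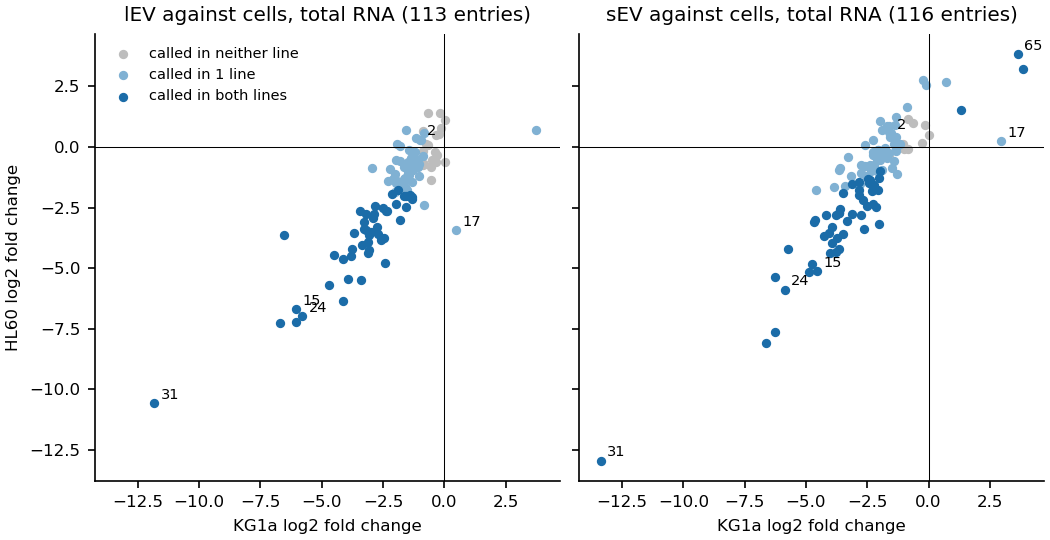
TMM-scaled log2 fold changes of vesicles against cells in total RNA, KG1a on the x axis and HL60 on the y axis, for the entries tested in both lines (113 in lEV, 116 in sEV); colours show in how many lines an entry was called. Most points lie below 0 on both axes, entry 31 is the lowest in both panels, and the points called in both lines lie in the lower left except for entries 65, 85 and 126 at the upper right of the sEV panel.

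The test of the difference between lines (HL60 minus KG1a) called few entries in edgeR. With 3 or 4 libraries in a group, few calls do not show that the lines behaved alike. For lEV against cells 0 of 139 entries were called in edgeR (all features 0.584%), with 14 at an unadjusted p under 0.05, while DESeq2 called 3 higher and 2 lower. For sEV against cells 1 of 140 was called in edgeR (all features 0.0586%), and DESeq2 called 29, all higher. An unadjusted p under 0.05 in edgeR was found for 50 of the 140, beside 1932 of all 11938 features tested. The median difference of the entries was 1.04, beside -0.07 for all features. Scaled to the miRNA pool, 3 entries were higher and 7 lower (2292 of all features called). The one called by edgeR, named although it falls below the level set for naming, was entry 89, with a difference of 7.41 (SE 1.24, adjusted p = 0.027). Entry 89 was at 10.1, 13.7, 9.71 and 19.1 CPM in KG1a cells and 1.71, 0.466 and 0.579 CPM in KG1a sEV, against 0, 0.0671 and 0.280 CPM in HL60 cells and 0.909, 0.120 and 1.73 CPM in HL60 sEV, so the HL60 values rest on few reads. Its call was lost without any of 6 single libraries (KG1a cell replicate 2, 3 or 4, KG1a sEV replicate 3, and HL60 cell replicate 1 or 2), each of which left 0 calls.

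Without pairing of libraries, few entries were called between large and small vesicles of a line. In KG1a 2 of 123, entries 42 and 89, were lower in sEV than in lEV (all features 1.90%) and 0 higher (all features 3.41%), with 15 at an unadjusted p under 0.05 in edgeR and 2 higher and 3 lower in DESeq2. Same-numbered KG1a lEV and sEV libraries deviated together, and with the replicate number as a block 3 entries were higher and 11 lower. That block called 1107 of all 7682 features in either direction, so the entries did not stand out. Library totals as the only scaling gave 5 higher and 2 lower, and scaling to the miRNA pool 1 higher (all features 4.28%) and 2 lower (all features 0.612%). Leaving out any KG1a lEV library gave 0 calls and leaving out KG1a sEV replicate 1 gave 5, and neither entry reached the 50 CPM set for naming. Entry 42 had -3.47 (SE 0.69, adjusted p = 0.038) and entry 89 -4.62 (SE 0.65, adjusted p = 0.034). In HL60 1 of 117 was higher in sEV (all features 5.45%) and 0 were lower (all features 1.75%), with 9 at an unadjusted p under 0.05 and 8 higher and 0 lower in DESeq2.

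The entry higher in HL60 sEV than in HL60 lEV was entry 17. In HL60 it was at 600.2, 743 and 1603 CPM in cells, 37.98, 3.73 and 152 CPM in lEV and 1181, 691 and 2471 CPM in sEV. The lEV libraries lay below all others, while the cell and sEV libraries overlapped. The log2 fold change of sEV against lEV was 3.76 (SE 0.94, adjusted p = 0.032), and leaving out any HL60 lEV library, or sEV replicate 1 or 2, gave 0 calls, and leaving out sEV replicate 3 gave 2. KG1a had 20.2, 46.4, 63.3 and 38.03 CPM in cells, 14.2, 44.2 and 134 CPM in lEV and 208, 379 and 1744 CPM in sEV, so the sEV libraries were the highest there too. In KG1a sEV against cells it was called higher, at 2.94 (SE 0.58, adjusted p = 0.0020), and sEV against lEV was 2.65 (SE 0.85, adjusted p = 0.098). In HL60 lEV against cells it was lower, at -3.44 (SE 0.88, adjusted p = 0.012), and in HL60 sEV against cells it was 0.26 (SE 0.48, adjusted p = 0.73).

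Most entries were lower in the pull-down than in total RNA of the same cells, and a few were higher. In KG1a cells 74 of 130 entries tested were lower in rPAL than in total RNA (all features 9.86%) and 3 higher (all features 8.89%), with a median log2 fold change of -2.97 beside -0.04 for all features. In HL60 cells 110 of 126 were lower (all features 18.0%) and 7 higher (all features 20.6%), with a median of -4.83 beside 0.04. Without KG1a cell rPAL replicates 2 and 3, which had the higher precursor shares, 4 were higher and 90 lower in KG1a. Scaled to the miRNA pool, KG1a cells had 16 higher (all features 27.2%) and 56 lower (all features 6.20%), and HL60 cells 10 higher (all features 44.6%) and 89 lower (all features 11.1%). Between the lines, 67 entries were lower in both (90.5% of KG1a's 74 and 60.9% of HL60's 110) and entries 6, 65 and 122 were higher in both (100% of KG1a's 3 and 42.9% of HL60's 7). Among all entries tested, 87.3% were lower in HL60 cells and 56.9% in KG1a cells. The shares for lower entries lie near these rates, so this overlap does not show agreement between the lines.

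Entry 6 (URS000075A1F7) was the one entry of the 12 most abundant that was called higher in rPAL RNA of both lines. KG1a cells had 454, 1375, 1599 and 1845 CPM in total RNA and 6156, 6884, 8063 and 5938 CPM in rPAL RNA. HL60 cells had 335, 266 and 457 CPM and 5393, 6679 and 4551 CPM. Every rPAL library lay above every total RNA library of its line, and the 4 KG1a rPAL values were close together although the whole set's share varied between the same libraries. The log2 fold changes were 2.19 (SE 0.52, adjusted p = 0.011) in KG1a and 3.70 (SE 0.25, adjusted p = 7.6e-06) in HL60. The KG1a call was lost without total RNA replicate 2 or 3 (adjusted p = 0.061 and 0.056). Their difference, HL60 minus KG1a, was 1.41 (SE 0.64, adjusted p = 0.27). In vesicle total RNA entry 6 was scarce, at 197, 132 and 130.2 CPM in KG1a lEV and 44.01, 37.9 and 101 CPM in HL60 sEV, and its log2 fold change in KG1a lEV against cells was -3.19 (SE 0.45, adjusted p = 4.2e-05). In the vesicle pull-downs it was at 419, 326 and 112 CPM (KG1a lEV), 559, 2899 and 137 CPM (KG1a sEV), 153, 101 and 109 CPM (HL60 lEV) and 66.5, 164 and 218 CPM (HL60 sEV). There rPAL against total RNA was 0.93 (SE 0.99, adjusted p = 0.63), 2.53 (SE 1.11, adjusted p = 0.18), 0.42 (SE 0.94, adjusted p = 0.79) and 1.12 (SE 0.88, adjusted p = 0.48) in the same order, none past the threshold. Relative to the miRNA pool, however, entry 6 was higher in all 4, at 4.54 (SE 1.43, adjusted p = 0.0077), 6.16 (SE 1.50, adjusted p = 0.0034), 5.36 (SE 1.17, adjusted p = 0.0026) and 5.98 (SE 1.12, adjusted p = 0.014).

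Entry 65 (URS0000079F78) had the largest rise of the entries called, in both lines. Its total RNA levels were 0.0725, 0.411, 1.04 and 0.672 CPM in KG1a cells and 0.0713, 0.134 and 0.699 CPM in HL60 cells, and its rPAL levels 111, 17.8, 40.7 and 31.9 CPM and 91.4, 45.6 and 36.95 CPM. The groups did not overlap, and the log2 fold changes were 6.44 (SE 0.95, adjusted p = 0.0011) and 7.27 (SE 0.85, adjusted p = 0.00019). Entry 122 followed at 3.71 (SE 0.99, adjusted p = 0.020) in KG1a and 5.47 (SE 1.05, adjusted p = 0.0034) in HL60, from at most 1.12 CPM in any cell total RNA library. HL60 cells also had entries 42 and 140 higher, at 3.31 (SE 0.72, adjusted p = 0.0056) and 4.52 (SE 0.65, adjusted p = 0.00066). Entry 42 lost its call without HL60 cell total RNA replicate 2 (adjusted p = 0.054). Its rPAL replicate 1 was the highest, with 507, 119 and 66.99 CPM in rPAL against 17.98, 14.5 and 25.4 CPM in total RNA.

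Entries 8 and 9 were called in HL60 cells only. Entry 8 was at 519, 366 and 719.8 CPM in HL60 cell total RNA and 3218, 3668 and 3178 CPM in rPAL RNA, a log2 fold change of 2.39 (SE 0.26, adjusted p = 0.00012), and entry 9 had 2.40 (SE 0.26, adjusted p = 0.00012). In KG1a cells entry 8 was at 576, 876, 1188 and 1159 CPM and 3895, 2394, 8012 and 345 CPM, where 3 of 4 rPAL libraries lay above all total RNA libraries and replicate 4 lay below them, and its value was 1.60 (SE 0.69, adjusted p = 0.15). The difference between lines was 0.71 (SE 0.81, adjusted p = 0.75).

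Entry 1 fell in the pull-down of HL60 cells and did not pass the test in KG1a cells. KG1a cells had 20038, 22511, 20822 and 26439 CPM in total RNA and 10979.8, 30729, 44333 and 1826 CPM in rPAL RNA, so the rPAL values fell on both sides of the total RNA values, with a log2 fold change of -0.49 (SE 0.66, adjusted p = 0.70). HL60 cells had 10394, 8759 and 9332 CPM and 781, 1149 and 907 CPM, without overlap, and a log2 fold change of -3.60 (SE 0.20, adjusted p = 2.1e-06). The difference, HL60 minus KG1a, was -3.21 (SE 0.81, adjusted p = 0.045). The highest KG1a rPAL values of entry 1 were in replicates 3 and 2, the libraries with the higher precursor shares, and the part of precursor reads in this difference was not tested. Over the 38 libraries the count of entry 1 differed from those of 2 precursor entries by at most 0.08 on the log2 scale in every library, so the same reads may have been counted for all 3.

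Entry 15, high in cells and low in vesicles, had the largest fall in KG1a cell rPAL RNA among entries of at least 50 CPM. Its 2247, 2812, 2575 and 2578 CPM in KG1a cell total RNA stood against 0, 1.84, 3.23 and 2.12 CPM in rPAL RNA, and 639, 406 and 644 CPM in HL60 against 2.02, 1.14 and 1.10 CPM. The log2 fold changes were -10.67 (SE 1.17, adjusted p = 0.00032) and -8.89 (SE 0.41, adjusted p = 1.1e-06). Entry 36 had -8.06 (SE 0.88, adjusted p = 0.00032) and -9.64 (SE 0.67, adjusted p = 9.0e-06), and entry 23 -7.78 (SE 0.93, adjusted p = 0.00036) and -8.47 (SE 0.44, adjusted p = 1.8e-06). Entry 35 had -8.21 (SE 1.24, adjusted p = 0.0012) in KG1a and entry 28 -9.76 (SE 0.51, adjusted p = 1.9e-06) in HL60. Entry 31, nearly absent from vesicles, had -3.21 (SE 0.90, adjusted p = 0.019) in HL60 cells, from 89.96, 49.6 and 108 CPM to 26.8, 2.90 and 2.36 CPM.

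In the vesicle pull-downs entry 89, in lEV and sEV of HL60, was the one entry called higher by edgeR with TMM. KG1a lEV had 55 of 115 entries lower (all features 7.07%) and 0 higher (all features 3.16%), with 80 at an unadjusted p under 0.05 in edgeR and 0 higher in DESeq2. KG1a sEV had 70 of 122 lower (all features 6.13%) and 0 higher (all features 0.480%), with 93 at an unadjusted p under 0.05 and 2 higher in DESeq2. HL60 lEV had 29 of 60 lower (all features 18.9%) and 1 higher (all features 12.3%). HL60 sEV had 75 of 98 lower (all features 16.3%) and 1 higher (all features 2.51%). The median log2 fold changes were -4.42, -5.30, -4.25 and -8.19 in this order, beside -0.30, -0.42, 0.08 and -0.12 for all features. Since 9, 33, 19 and 61 of the tested entries had no rPAL read, the medians with these entries at a floor of 3 counts were -4.40, -4.45, -4.12 and -4.92. Scaled to the miRNA pool, KG1a lEV had 7 higher (all features 48.1%) and 27 lower (all features 3.55%), and HL60 lEV 3 higher (all features 43.4%) and 19 lower (all features 5.53%). On that scale KG1a sEV had 3 higher (entries 6, 89 and 130; all features 40.7%) and 35 lower (all features 3.24%), and HL60 sEV 4 higher (entries 5, 6, 42 and 89; all features 39.0%) and 43 lower (all features 5.66%).

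These vesicle counts change with the filter on low counts and with single libraries. With no filter KG1a lEV had 0 calls, KG1a sEV 3, HL60 lEV 15 and HL60 sEV 21. KG1a lEV had 0 calls without total RNA replicate 1, and 34 and 32 without replicate 2 or 3. KG1a sEV had 0 without rPAL replicate 1 or 2, and 8, 25 and 27 without total RNA replicate 1, 2 or 3. HL60 lEV had 3, 9 and 6 calls without total RNA replicate 1, 2 or 3, and 76, 79 and 71 without rPAL replicate 1, 2 or 3. HL60 sEV had 20, 23 and 18 without total RNA replicate 1, 2 or 3, and 23, 13 and 39 without rPAL replicate 1, 2 or 3, the second of these being the library dominated by 1 mRNA. The number of entries that pass the filter on low counts changes with the libraries left in.

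Entry 89 was the entry higher in the pull-down of both HL60 vesicle types. In lEV its total RNA levels were 0, 0.0732 and 0.222 CPM and its rPAL levels 14.8, 34.7 and 12.1 CPM. In sEV they were 0.909, 0.120 and 1.73 CPM and 19.7, 38.4 and 171 CPM, with the highest value in replicate 3. Neither pair of groups overlapped, and the log2 fold changes were 6.18 (SE 1.72, adjusted p = 0.025) in lEV and 6.03 (SE 1.64, adjusted p = 0.033) in sEV. The sEV call was lost without any 1 of its 6 libraries, at adjusted p-values of 0.053 to 0.31. KG1a sEV had 1.71, 0.466 and 0.579 CPM in total RNA and 1.80, 2.61 and 37.6 CPM in rPAL RNA, at 3.80 (SE 1.66, adjusted p = 0.18).

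Other entries left few or no reads in the vesicle pull-downs. Entry 23 had 83.7, 6.73 and 90.6 CPM in HL60 lEV total RNA and 0 reads in rPAL RNA, at least 282-fold lower from a floor of 3 counts over the group (adjusted p = 0.0073), and was at least 397-fold lower in HL60 sEV (adjusted p = 0.0069). In HL60 sEV entries 14, 58 and 39 also had 0 rPAL reads, at least 827-fold, 330.3-fold and 290.4-fold lower by the same floor. In KG1a sEV entry 35 had 0 rPAL reads and was at least 202-fold lower. Entry 2, the leading entry of the HL60 vesicle pool, was at 44.99, 28.96 and 212 CPM in HL60 sEV rPAL RNA against 16486, 21060.2 and 13019 CPM in total RNA, a log2 fold change of -7.68 (SE 0.96, adjusted p = 0.0035), and had -7.49 (SE 0.93, adjusted p = 0.0044) in HL60 lEV. In HL60 lEV entries 10 and 19 had -8.04 (SE 1.46, adjusted p = 0.0099) and -7.49 (SE 1.64, adjusted p = 0.013). In KG1a lEV entries 26, 33 and 14 had -6.93 (SE 1.39, adjusted p = 0.024), -6.86 (SE 1.58, adjusted p = 0.024) and -6.07 (SE 1.14, adjusted p = 0.024). In KG1a sEV entries 15, 23 and 39 had -8.16 (SE 1.66, adjusted p = 0.0015), -7.41 (SE 1.86, adjusted p = 0.010) and -6.82 (SE 1.72, adjusted p = 0.010). Scaled to the miRNA pool, 5 of these named falls lost their call: entries 10 and 19 in HL60 lEV had -3.32 (adjusted p = 0.051) and -2.70 (adjusted p = 0.16), entry 14 in KG1a lEV had -2.14 (adjusted p = 0.24), and entries 23 and 39 in KG1a sEV had -3.32 (adjusted p = 0.14) and -4.03 (adjusted p = 0.070). Lower in vesicle pull-downs of both lines were 14 entries in lEV (25.5% of KG1a's 55 and 48.3% of HL60's 29) and 43 in sEV (61.4% of KG1a's 70 and 57.3% of HL60's 75). Both overlaps include entries that could only be lower, such as entry 23, with no rPAL read in either HL60 vesicle type. Among all entries tested, 47.8% were lower in KG1a lEV, 48.3% in HL60 lEV, 57.4% in KG1a sEV and 76.5% in HL60 sEV.

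Across the 6 sources, 50 entries were tested in every one. Of these, 12 were lower in rPAL RNA in all 6, the most abundant being entries 2, 4, 10 and 12 (all features tested in all 6 sources 4.41%). This count is 0 with no filter on low counts, and without KG1a lEV total RNA replicate 1 or KG1a sEV rPAL replicate 1 or 2, since each leaves a source with no call. Of the 12, entries 23, 26, 35, 39, 45, 59 and 61 had 0 reads in HL60 lEV rPAL RNA. In that source they could only be lower. No entry was higher in all 6 (all features 0.226%), and 8 entries were higher in at least 1. For entry 2 the log2 fold changes were -3.97 (SE 0.80, adjusted p = 0.0044) in KG1a cells, -5.48 (SE 1.27, adjusted p = 0.024) in KG1a lEV, -6.25 (SE 1.12, adjusted p = 0.00041) in KG1a sEV and -5.78 (SE 0.23, adjusted p = 5.3e-07) in HL60 cells, beside the HL60 vesicle values above.

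**Figure D5:**
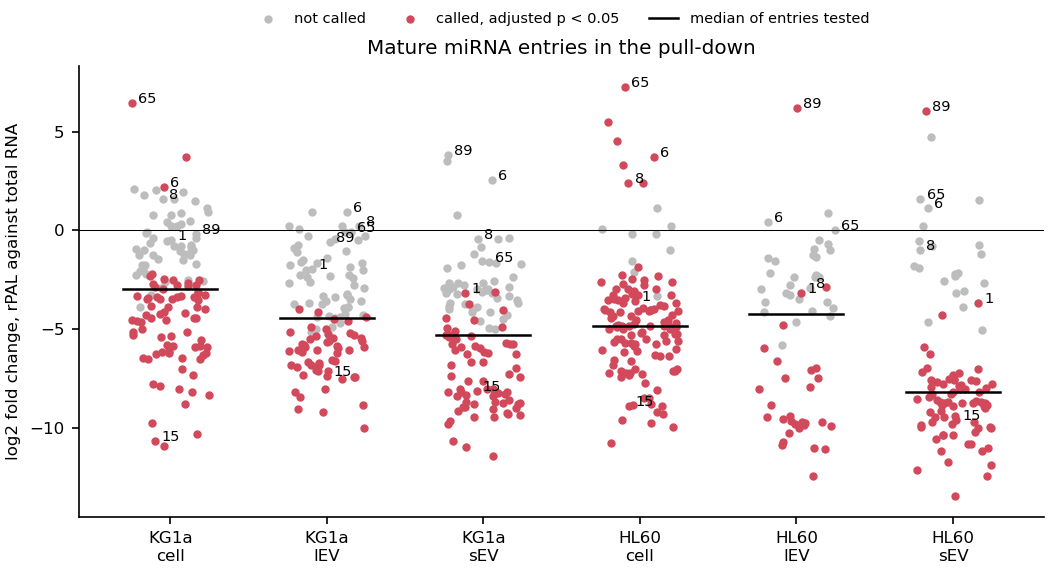
Log2 fold changes of rPAL against total RNA for the entries tested in each of the 6 sources, red where called and grey where not, with black bars at the median; points are spread sideways at random and 6 entries are numbered. Most points lie below 0 in every source, and the medians run from -2.97 in KG1a cells to -8.19 in HL60 sEV. The HL60 sEV median is set by fitted values of entries with no rPAL read. With these at a floor of 3 counts it was -4.92. The red points above 0 are found in both cell lines and, for entry 89, in HL60 vesicles.

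Differences in enrichment were tested as interactions. Between the lines, in cells, 13 of 140 entries were called (all features 1.81%), 1 (entry 125) with a higher and 12 with a lower log2 fold change in HL60. Those named by the level rule were entries 19, 40 and 22. Entry 40 was at 51.5 ± 6.40 CPM (SD, n = 3) in HL60 total and 2.38 ± 0.818 in HL60 rPAL RNA, against 88.7 ± 7.13 CPM (SD, n = 4) and 79.98 ± 76.6 in KG1a, a difference of -4.22 (SE 0.87, adjusted p = 0.021). Entry 22 had 199 ± 32.2 and 5.97 ± 1.47 CPM in HL60 (SD, n = 3), 446 ± 39.5 and 267 ± 283 CPM in KG1a (SD, n = 4), and a difference of -4.19 (SE 0.93, adjusted p = 0.031). Entry 19 is nearly absent from KG1a, so its difference of -6.84 (SE 0.82, adjusted p = 0.00019) compares HL60 with at most 0.489 CPM in any KG1a cell library. Without KG1a cell rPAL replicate 4, 39 were called, and without any other single library 2 to 18. Entries 40 and 22 lost their calls without any 1 HL60 library. Within HL60, lEV against cells had 16 of 127 called (all features 12.7%), 3 (entries 4, 28 and 74) higher and 13 lower, a split that became 4 and 2 with library totals only and 7 and 8 in DESeq2. Of the 13, entries 48, 49, 55, 57, 58, 68, 86, 106 and 139 had 0 reads in HL60 lEV rPAL RNA. The fitted differences of these entries are set by depth and are not bounds. Entry 74 had 0 reads in HL60 cell rPAL RNA and 1.91 ± 3.30 CPM in lEV rPAL RNA (SD, n = 3). The sEV against cells had 29 of 129 called (all features 13.2%), 0 higher and 29 lower, and 6 higher and 12 lower in DESeq2. Most of these 29 had 0 reads in HL60 sEV rPAL RNA. They include entries 14, 23, 27, 35, 39, 48, 52, 53, 55, 58, 59, 60, 82, 86, 91 and 105. The fitted differences of entries without such reads are likewise set by depth and are not bounds. Both HL60 interactions share the cell libraries, and each had 2 calls without any 1 of the HL60 cell total RNA libraries. Other single libraries left out gave 3 to 26 calls for lEV and 3 to 39 for sEV. Scaled to the miRNA pool, the difference for entry 8, HL60 lEV minus HL60 cells, was -2.37 (adjusted p = 0.14), not called. On the TMM scale it was -4.92 (SE 0.97, adjusted p = 0.0068), with 8.30, 3.29 and 48.8 CPM in lEV total RNA and 4.24, 7.86 and 6.43 CPM in lEV rPAL RNA. In KG1a 0 of 131 entries (lEV, all features 0%) and 0 of 132 (sEV, all features 0.0584%) were called by edgeR. Unadjusted p-values under 0.05 numbered 20 and 38, and DESeq2 called 3 higher and 1 lower in lEV and 4 higher and 5 lower in sEV.

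Most entries had a level profile close to that of their best match among the hairpin precursor entries. In the 19 total RNA libraries an entry's log2(CPM + 1) was compared with that of each of 176 precursor entries. The best Pearson r had a median of 0.969 over the 140 entries, and 86 had 0.95 or more. Total RNA is also the baseline of the pull-down fold changes, so r is not independent of the calls. A low total RNA level favours a call as higher and can also lower r. The nearest feature was a precursor entry for 80 of the 140, and for the others it was of another class. These values, each the best of 176, are a description: the libraries share depth and source differences, and a mature entry may share reads with its precursor. Of the 74 entries lower in KG1a cell rPAL RNA the median was 0.975, and of the 110 lower in HL60 it was 0.972. The 3 entries higher in KG1a had a median of 0.747 and the 7 higher in HL60 of 0.799, with none at 0.95 or above. The low values were those of entries 42, 65, 122 and 140, at 0.629 to 0.799, which had at most 36.9 CPM in any of these libraries. The more abundant entries 6, 8 and 9 had 0.932, 0.947 and 0.9498. By profile over all 38 libraries, 19 of the 36 nearest features of the 12 most abundant entries were precursor entries. Those of entry 6 were long non-coding RNA genes, LINC00665 (r = 0.914), AC073174.2 (r = 0.913) and LINC01714 (r = 0.882).

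The named miRNA genes of Ensembl in the lists below drew few counts. Ensembl miRNA genes as a whole took 0.303 to 0.981% of KG1a cell rPAL counts, in replicate 4 more than the 140 entries, and at most 0.0397% in any total RNA library. In cell rPAL RNA most of the Ensembl miRNA counts were of MIR7977, named after its values were seen. It was at 5335 ± 3066 CPM in KG1a (SD, n = 4) and 2108 ± 768 CPM in HL60 cell rPAL RNA (SD, n = 3). In cell total RNA it was a minor part, at 81.6 ± 14.5 CPM in KG1a (SD, n = 4) and 37.4 ± 8.53 CPM in HL60 (SD, n = 3). The 12 let-7 genes had 281 counts in all 38 libraries, 12 miRNA genes known from myeloid cells 27 and 11 genes of the MIR17-92 cluster and its copies 5. Of these 3 lists MIRLET7G alone was tested, in KG1a, and it was lower in lEV and sEV than in cells and in cell rPAL than in total RNA, with log2 fold changes of -2.71 (SE 0.46, adjusted p = 0.00019), -3.18 (SE 0.52, adjusted p = 0.00076) and -7.79 (SE 1.26, adjusted p = 0.0031). The 21 mRNAs listed for miRNA processing, Argonaute loading and vesicle sorting were called at shares near or below those of all features, given in parentheses. In KG1a lEV 14 were tested, 4 were higher than in cells (all features 23.8%) and 1 lower (all features 28.5%). The higher ones were YBX1, an RNA-binding protein, at 2.45 (SE 0.34, adjusted p = 3.3e-05), HNRNPA2B1, which binds miRNAs, at 1.80 (SE 0.32, adjusted p = 0.00027), RAN, the small GTPase of nuclear transport, at 1.49 (SE 0.36, adjusted p = 0.0028), and the Argonaute AGO1 at 1.24 (SE 0.47, adjusted p = 0.038). AGO2, the slicing Argonaute, was lower at -1.07 (SE 0.37, adjusted p = 0.024). In KG1a sEV 2 of 16 were higher (all features 23.0%), HNRNPA2B1 at 2.32 (SE 0.40, adjusted p = 0.0011) and the precursor exporter XPO5 at 1.26 (SE 0.46, adjusted p = 0.041). HL60 lEV had 2 of 17 higher (all features 12.1%), TUT7, which adds uridines to RNA ends, at 1.79 (SE 0.48, adjusted p = 0.016) and TNRC6B, an Argonaute partner in silencing, at 1.38 (SE 0.41, adjusted p = 0.025). HL60 sEV had 2 of 17 higher (all features 13.9%), TNRC6C at 1.88 (SE 0.61, adjusted p = 0.048) and XPO5 at 1.69 (SE 0.50, adjusted p = 0.035), and none of the 3 latter comparisons had a lower one. The list's median log2 fold changes were 0.20, 0.29, 0.65 and 0.48 in this order. In the cell pull-down KG1a had 0 of 14 called, and HL60 had 2 of 14 higher (all features 20.6%), TNRC6C at 2.27 (SE 0.79, adjusted p = 0.048) and XPO5 at 1.84 (SE 0.58, adjusted p = 0.032), and 0 lower. In the vesicle pull-downs KG1a lEV had 1 of 10 lower (all features 7.07%), the RNA-binding protein SYNCRIP at -5.14 (SE 1.45, adjusted p = 0.034), and HL60 lEV 1 of 7 higher (all features 12.3%), HNRNPA2B1 at 2.36 (SE 0.73, adjusted p = 0.039). None of 15 was called in KG1a sEV and none of 8 in HL60 sEV.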

How the data were processed

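Small RNA libraries had been made by adaptor ligation and gel size selection, per the labels' protocols. Read counts of 90127 features, not normalized, were deposited by the authors for each library. Bowtie2 and GRCh38 (hg38) are named per the submitters' processing notes; the counter, its treatment of reads that map to several features and the annotation release are not given in the sources used here, so near-identical entries and precursors may share reads. CPM were computed from these counts per library total. Library totals ranged from 2380745 to 15532758.

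Comparisons of 2 groups and interactions used edgeR 4.0.16 in R 4.3.3 (filterByExpr, TMM, robust quasi-likelihood fits of the compared groups alone, Benjamini-Hochberg over all features tested, threshold 0.05). Standard errors were taken as the absolute log2 fold change over the square root of F. DESeq2 1.42.0, library totals in place of TMM, scaling to the mature miRNA pool, no count filter, a replicate block and leaving out each library were alternatives. Shares of counts were tested by exact permutation. The code was tested on simulated data. Entries were named by this rule: the 12 with the highest mean CPM; per comparison, up to 4 in each direction with an adjusted p under 0.05, 50 CPM or more in the higher group and no overlap; and per interaction up to 3 in each direction at 50 CPM or more. The members and lists were chosen with earlier results of these data known. The main fits left out any pairing. For the replicate block, same-numbered libraries were taken as paired in KG1a lEV against sEV, from the data alone: their deviations from the group means correlated at r = 0.47, 0.19 and 0.35, each above 0.1. The genome reference was not used, as the identifiers carry no coordinates in the files.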

Additional observations from a re-analysis of the deposited data

Results flagged for a closer look

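An interaction test in edgeR, with Benjamini-Hochberg adjustment over all features, asked where the change from total to rPAL RNA differed between lines or sources. It called 13 of 140 entries between the cells of HL60 and KG1a (all features 1.81%), 16 of 127 between HL60 lEV and cells (all features 12.7%, about the same share) and 29 of 129 between HL60 sEV and cells (all features 13.2%). Most of the 29 had no read in HL60 sEV rPAL RNA. The 11 below are those with at least 50 CPM in a group, up to 3 in each direction. HL60 against KG1a cells gave entry 19 at -6.84 (SE 0.82, adjusted p = 0.00019), entry 40 at -4.22 (SE 0.87, adjusted p = 0.021) and entry 22 at -4.19 (SE 0.93, adjusted p = 0.031), all on the log2 scale. HL60 lEV against HL60 cells gave entry 28 at 6.38 (SE 1.61, adjusted p = 0.022), entry 4 at 3.80 (SE 0.95, adjusted p = 0.021), entry 65 at -6.72 (SE 2.02, adjusted p = 0.040), entry 55 at -5.27 (SE 1.58, adjusted p = 0.043) and entry 8 at -4.92 (SE 0.97, adjusted p = 0.0068). Entry 4 kept 44.98 ± 11.9 CPM in HL60 lEV rPAL RNA of 129 ± 115 CPM in total RNA (SD, n = 3), against 17.9 ± 6.68 of 1447 ± 294 CPM in cells. Entry 28 had 0, 2.08 and 0 CPM in the 3 HL60 lEV rPAL libraries, so its value rests on 1 library. Entry 55 had 0 reads in HL60 lEV rPAL RNA, so its fitted value is not a bound. HL60 sEV against HL60 cells gave entry 14 at -8.17 (SE 1.23, adjusted p = 0.0016), entry 53 at -7.09 (SE 1.53, adjusted p = 0.012) and entry 39 at -6.85 (SE 1.93, adjusted p = 0.032), all 3 with 0 reads in HL60 sEV rPAL RNA, so their fitted values are not bounds. Scaled to the miRNA pool, entry 4 kept its call and the other 7 HL60 vesicle differences lost theirs. Entries 28, 65, 55 and 8 then had 8.26 (adjusted p = 0.051), -4.19 (adjusted p = 0.24), -7.23 (adjusted p = 0.34) and -2.37 (adjusted p = 0.14) in lEV, and entries 14, 53 and 39 had -9.94 (adjusted p = 0.13), -8.92 (adjusted p = 0.21) and -8.72 (adjusted p = 0.28) in sEV. The calls of entries 40, 22, 28, 4, 65, 55, 39 and 53 were lost with at least 3 of the single libraries left out, and chance would set about 1 in 20 groups apart by the test that follows. In 26 tests on groups of 4 KG1a libraries for one far from the others, 0 passed Dixon's critical value.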

How the results depend on the processing

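The 60 named values, each an entry in a comparison, were recomputed 761 times under the alternatives: 639 kept the direction and the side of the threshold, 122 kept the direction and lost the call, and 0 reversed. Of the losses, 3 came with library totals in place of TMM, 2 with DESeq2, 12 with scaling to the miRNA pool, 9 with no count filter, 5 with the replicate block and the others with a library left out. The cause was not tested, except that a library left out leaves fewer samples.

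Counts of entries called changed by over 1.5 times as follows. Scaled to the miRNA pool, KG1a vesicles against cells gave 62 (lEV) and 58 (sEV) in place of 103 and 113. The pull-down counts became 34 for KG1a lEV, 38 for KG1a sEV and 47 for HL60 sEV, in place of 55, 70 and 76. The differences between lines became 1 (lEV), 10 (sEV) and 5 (cell pull-down) in place of 0, 1 and 13, and the HL60 differences of lEV and sEV from cells 6 and 4 in place of 16 and 29. With library totals in place of TMM, sEV against lEV gave 7 in KG1a and 12 in HL60 in place of 2 and 1. The line differences gave 4, 4 and 7, the HL60 differences 6 and 19, and the KG1a ones 1 and 2 in place of 0 and 0. DESeq2 gave 5 and 8 for sEV against lEV, 5, 29 and 27 for the line differences, 18 for HL60 sEV against cells, and 4 and 9 for KG1a. With no count filter sEV against lEV gave 10 and 2, and the vesicle pull-downs 0 (KG1a lEV), 3 (KG1a sEV), 15 (HL60 lEV, from 30) and 21 (HL60 sEV). The line differences then gave 2 (lEV) and 6 (sEV), the HL60 differences 6 and 9, and KG1a sEV against cells 1.

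With the replicate block, sEV against lEV gave 14 in KG1a, where the numbers pair the libraries, and 3 in HL60. Among all features it called 1107 of 7682 in KG1a and 387 of 5813 in HL60. Elsewhere the libraries share only a number, and the block gave 29 for the KG1a sEV and 24 for the HL60 sEV pull-down, 2 for the line difference in lEV and 4 for that in the cell pull-down, and 4 and 14 for the HL60 lEV and sEV differences from cells; other counts stayed within 1.5 times. Leaving out both KG1a cell rPAL libraries of high precursor share gave 1 for the KG1a lEV difference from cells.

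Leaving out each library in turn gave these ranges of entries called. Against cells they were 80 to 106 (KG1a lEV), 102 to 115 (KG1a sEV), 39 to 76 (HL60 lEV) and 34 to 71 (HL60 sEV), and for sEV against lEV 0 to 5 (KG1a) and 0 to 2 (HL60). In the pull-down they were 66 to 86 (KG1a cells), 0 to 79 (KG1a lEV), 0 to 49 (KG1a sEV), 108 to 122 (HL60 cells), 3 to 79 (HL60 lEV) and 13 to 39 (HL60 sEV). The line differences gave 0 to 2 (lEV), 0 to 6 (sEV) and 2 to 39 (cell pull-down), and the differences of vesicle from cell pull-down 2 to 26 and 2 to 39 in HL60 and 0 to 1 and 0 to 2 in KG1a (lEV and sEV).

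A summed count of 500 or more would have kept 190 entries and one of 5000 or more 66. Depth limits the vesicle pull-downs: 43 entries in KG1a sEV, 88 in HL60 lEV and 99 in HL60 sEV had no rPAL read. Of these, 33, 19 and 61 were tested, and where such an entry was lower its fall is known only as a lower bound. For the others a lack of rPAL reads does not show a fall, as entry 31 had no total RNA read in HL60 sEV either.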
